A study of Mus musculus with 8 samples.

Results

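The 8 libraries of the series were split into sets chosen by the share of their counts that came from the mitochondrial genome, and the nuclear genes of the 2 sides were compared. Counts of genes whose symbols start with mt- were summed and divided by the total of each library. High libraries held 20% or more and low libraries under 10%, which placed 4 of 8 libraries on each side, 2 from each tissue. RNA was sequenced from crypts of wild-type C57BL/6N mice, freshly isolated with EDTA from the small intestine, here SI, or from the colon, here COL. Each of 4 donor mice gave 1 library of each tissue, and SI1 to SI4 and COL1 to COL4 carry the mouse's replicate number. No genotype or treatment differs among the mice. The split into high and low is not a group of the study and was made from the counts themselves.

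Mitochondria keep a small circular genome that encodes a few subunits of the respiratory chain together with the ribosomal and transfer RNAs needed to translate them. The other subunits, the mitochondrial ribosomal proteins and the enzymes of fatty acid oxidation and the TCA cycle are encoded in the nucleus and imported. In RNA-seq of dissociated intestinal epithelium the mitochondrial share is widely read as a mark of library quality, because cytoplasmic mRNA can be lost or degraded while RNA inside mitochondria and nuclei stays behind, and it is also high in cells rich in mitochondria.

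The mitochondrial share, which chose the libraries and is therefore given without a test, was 4.84% in SI1, 7.35% in SI4, 6.94% in COL3 and 4.83% in COL4. On the other side it was 28.3% in SI2, 22.7% in SI3, 26.9% in COL1 and 50.8% in COL2. SI4 is the library just under the lower limit and SI3 the one just above the upper limit, so no library lies between 7.35% and 22.7%. The mouse of replicate 2 was on the high side in both tissues, and that of replicate 4 on the low side in both. Replicate 1 was high in COL and low in SI, and replicate 3 was high in SI and low in COL. Nuclear counts, the depth behind each value given here, ran from 7850880 in COL2 to 31319189 in COL4, so COL2 is the least precise library.

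**Figure D1:**
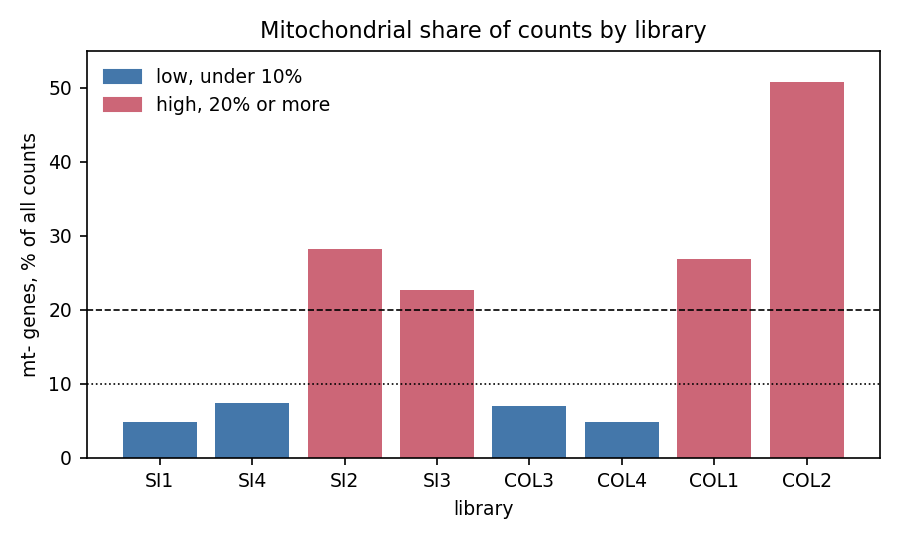
Share of all counts in mt- genes, in percent, for each library, with 1 bar per library (blue for low, red for high, dashed and dotted lines at 20% and 10%). The low libraries sit between 4.83% and 7.35% and the high libraries between 22.7% and 50.8%.

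The ribosomal RNA part of the mitochondrial counts was larger in the high libraries of SI. Ribosomal RNA of the mitochondrion made up 59.4% of mt- counts in SI2 and 63.7% in SI3, against 48.4% in SI1 and 50.3% in SI4. In colon it was 48.1% in COL1, 49.2% in COL2, 49.0% in COL3 and 44.2% in COL4. The high libraries thus stood above the low ones in SI, while in colon COL3 lay between COL1 and COL2, and no test was run on these shares.

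The labelled sex of the mice did not match the sex-linked transcripts. Libraries labelled female (SI1, SI4, COL1 and COL4) had 32.2 to 53.6 CPM (counts per 1000000 nuclear counts, with libraries scaled by TMM) of Ddx3y, which lies on the Y chromosome, and 0 to 0.524 CPM of Xist, the RNA of the inactive X. Libraries labelled male had 109.8 to 605 CPM of Xist and 0 to 0.0342 CPM of Ddx3y, and Eif2s3y, Kdm5d and Uty followed Ddx3y. The mismatch held in 8 of 8 libraries. In SI both high libraries are labelled male and both low libraries female, so sex and mitochondrial share cannot be told apart there, whereas each side of the colon split has 1 of each.

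Markers of the epithelium were present in every library. Epcam, the epithelial adhesion molecule, ran from 507 to 1153 CPM. Lgr5, a marker of crypt stem cells, was 0.806 CPM in SI1 and 7.495 to 20.4 CPM in the other 7 libraries. Enterocyte markers summed to 230436 CPM in SI1 and 186950 CPM in SI4 against 95094 CPM in SI2 and 112685 CPM in SI3, so the low SI libraries held more of them than the high ones. Enterocytes are the main cells of the villus, and the labels name crypts.

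Some nuclear genes carry copies of mitochondrial DNA, and their counts cannot be separated from those of the mitochondrial transcripts. Of 17470 nuclear genes that passed the filter on low counts, 11 shared stretches of 50 bases with an mt- transcript, and 7 of the 11 are pseudogenes in 1 cluster on chromosome 1. The pair mt-Nd3 and Gm28438 is shown because Gm28438 had the highest level of the 11. Over 345 bases that can be compared they differ at 1 (T3C, counted from 1 at the 5′ end of the mt-Nd3 transcript), marked by the capital in the first 80 bases, which lie at chrM:9459-9538 (plus strand) and chr1:24613040-24613119 (minus strand) in GRCm38, as given by the GENCODE vM21 transcripts.
mt-Nd3: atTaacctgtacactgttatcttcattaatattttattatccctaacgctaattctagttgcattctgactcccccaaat
Gm28438: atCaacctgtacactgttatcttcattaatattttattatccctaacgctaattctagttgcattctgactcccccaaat
Gm28438 was 760 CPM in SI1, 938 in SI4, 428 in COL3 and 256 in COL4, against 2628 in SI2, 3319 in SI3, 1411 in COL1 and 3236 in COL2. Gm28661, whose whole transcript occurs within mt-Co2, was 39.4 to 83.8 CPM in low and 191 to 609 CPM in high libraries. As these counts follow the share that chose the libraries, they are a description, and the genes are left out of what follows wherever genes are named. Without them the comparison below called 1089 genes.

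The comparison of high with low libraries, with tissue as a term, asked which nuclear transcripts moved with the mitochondrial share. At an adjusted p below 0.05 in edgeR's quasi-likelihood test, 1114 of 17470 genes differed (6.38%). Of these, 423 were higher in the high libraries (2.42%) and 691 lower (3.96%). The smallest adjusted p was 0.0287, and the median log2 difference over all genes tested was 0.09. Higher genes had a median log2 difference of 1.75 and lower genes one of -1.08, and 1113 of the 1114 differed in the same direction within SI and within COL. A gene passes a fit over both tissues more readily where the tissues agree. That agreement therefore follows largely from the selection and is a description.

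The calls rest on few libraries. With the donor mouse as a block, which leaves 2 residual degrees of freedom, edgeR called 0 genes (smallest adjusted p 0.159), and with sex as a term it called 0 (smallest adjusted p 0.091), so every call named below is lost in both. It also called 0 without SI1, SI2, SI4, COL3 or COL4, 366 without COL1, 261 without COL2 and 1235 without SI3. The direction of a call is relative to the scaling: with library size alone in place of TMM the median of all genes moved to 0.57, and 1714 genes were called higher and 99 lower (94.5% higher, against 38.0%).

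Within a single tissue, with 2 libraries a side, no gene passed in edgeR (0%). In SI 1492 genes were higher (8.54%) and 1528 lower (8.75%) at an unadjusted p below 0.05, and in COL 1728 were higher (9.89%) and 2172 lower (12.4%). The Wald test of DESeq2 called 915 genes in SI and 2305 in COL. The difference of the high-low effect between tissues, tested as an interaction, passed for 0 genes (0%) in edgeR, with 799 (4.57%) in 1 direction and 608 (3.48%) in the other at an unadjusted p below 0.05, and for 34 in DESeq2. The smallest adjusted p of that interaction in edgeR was 0.614, a value tied over many genes. Ms4a18, Iigp1 and Sult1c2 were those of smallest unadjusted p among them.

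Libraries of 1 tissue deviated from their tissue mean in the manner of libraries of like share in the other tissue. Over 17459 nuclear genes without the mitochondrial copies, Pearson's r between the deviations of an SI and a COL library was 0.01 to 0.39 in the 8 pairs of like share and -0.42 to -0.02 in the 8 pairs of unlike share. The 2 mice whose libraries were of like share in both tissues had r of 0.39 (replicate 2) and 0.33 (replicate 4). The 2 mice whose libraries were of unlike share had r of -0.15 (replicate 1) and -0.07 (replicate 3), below 0 as in the other pairs of unlike share. Pairs of the same mouse nevertheless had the higher median r on each side. It was 0.36 against 0.13 for different mice (0.01 to 0.28) in pairs of like share, and -0.11 against -0.20 in pairs of unlike share. In pairs of unlike share the values overlapped, since those of different mice ran from -0.42 to -0.02. The points are genes of the same 8 libraries and the deviations within a tissue sum to 0, so the values are descriptive. The first principal component of the deviations held 41.0% of their variance and ran from 7.18 to 106 in high and from -72.2 to -41.7 in low libraries.

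**Figure D2:**
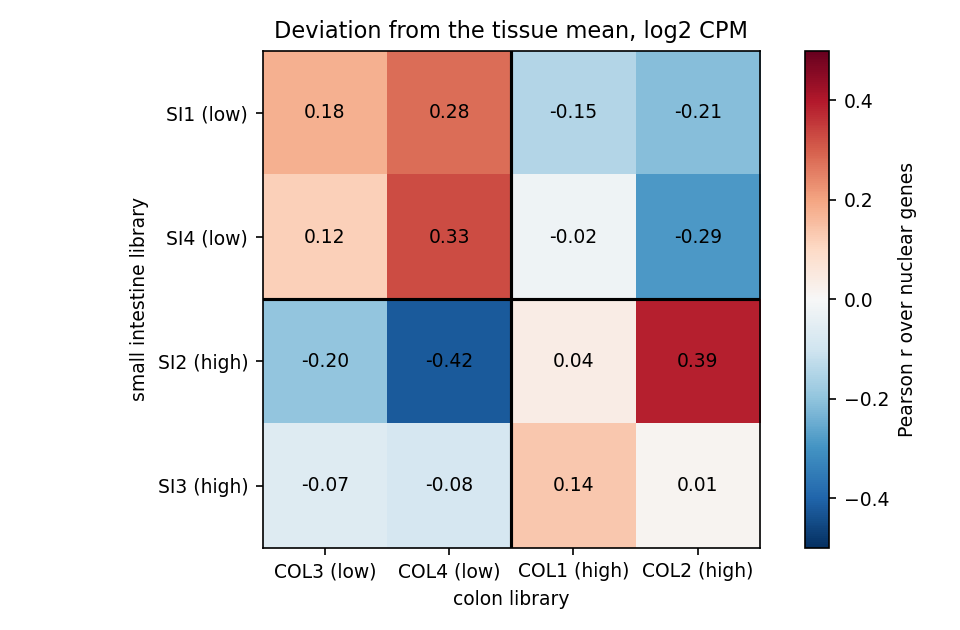
Pearson's r over 17459 nuclear genes between the deviation of each SI library (rows) and each COL library (columns) from its tissue mean on the log2 CPM scale, with black lines between low and high libraries. The 8 pairs of like share are at 0.01 to 0.39 and the 8 pairs of unlike share at -0.42 to -0.02.

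The genes with the smallest p among those higher in the high libraries included Zfc3h1, Srsf11, Luc7l2 and Upf3b, which act on RNA in the nucleus or in its decay. Zfc3h1, a partner of the nuclear exosome that degrades polyadenylated RNA, was 18.7 CPM in SI1 and 22.1 in SI4 against 95.8 in SI2 and 53.7 in SI3, and 18.9 in COL3 and 15.1 in COL4 against 49.1 in COL1 and 123 in COL2. Its log2 difference was 2.11 ± 0.32 (SE; edgeR adjusted p = 0.0287). Each high library lay above each low one, which held for 6.26% of all genes tested, and for 4.5% each high library lay below. The genes named for their smallest p were chosen on these same libraries. Their lack of overlap, here and below, is therefore a description.

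The splicing factors Srsf11 and Luc7l2 had the same order of libraries. Srsf11, an SR-type splicing factor, was 61.2 and 78.1 CPM in SI1 and SI4 against 209.8 and 179 in SI2 and SI3, and 60.2 and 68.8 in COL3 and COL4 against 179 and 396 in COL1 and COL2. Luc7l2, which binds the U1 snRNP, was 29.5 to 32.8 CPM in the 4 low libraries and 72.9, 77.9, 104 and 204 in SI2, SI3, COL1 and COL2. The log2 differences were 1.82 ± 0.29 for Srsf11 and 1.80 ± 0.31 for Luc7l2 (edgeR adjusted p = 0.0287 for both), and the groups did not overlap for either gene. Upf3b, a factor of nonsense-mediated decay, was 22.2 to 27.9 CPM in low and 47.5 to 89.97 CPM in high libraries.

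The other genes of smallest p on this side were Chd6, a chromatin remodeller (log2 difference 1.83), Cep85 and Cspp1, proteins of the centrosome and spindle (1.80 and 1.39), Phf14, a PHD finger protein (1.36), and Gm42418 (2.01), a lincRNA locus known to take up reads of ribosomal RNA. Gm42418 was 21.0 to 46.0 CPM in low and 76.6 to 199 CPM in high libraries. High and low libraries did not overlap for any of these 5 genes, which were chosen by smallest p. The same held in this direction for 6.26% of all genes.

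RNAs that are retained in the nucleus or not translated formed the list with the highest median. Of 17 listed, 15 were matched and 13 passed the filter, 5 were higher (38.5%) and 0 lower, against 2.42% and 3.96% of all genes, and their median log2 difference was 2.09 beside 0.09 for all genes. The filter can admit a gene through its high libraries alone, so the count and the median are descriptions. Malat1, the abundant RNA of nuclear speckles, was 530 CPM in SI1, 501 in SI4, 631 in COL3 and 634 in COL4, and 1279 in SI2, 1345 in SI3, 2256 in COL1 and 8917 in COL2. The low libraries lay within a narrow band, and COL2, with the highest mitochondrial share, had the highest level. The log2 difference was 2.24 ± 0.50 (edgeR adjusted p = 0.034).

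Neat1, the RNA of paraspeckles, was 128 to 231 CPM in low and 239 to 1218 CPM in high libraries (log2 difference 1.65). Kcnq1ot1 and Airn, long unspliced RNAs that silence imprinted genes in cis, had log2 differences of 2.499 ± 0.45 and 2.30 ± 0.48. Kcnq1ot1 was 3.86 and 10.03 CPM in SI1 and SI4 against 66.6 and 23.7 in SI2 and SI3, and 20.2 and 25.6 in COL3 and COL4 against 60.4 and 166 in COL1 and COL2. High and low libraries of a tissue were apart, as they were in this direction in both tissues for 12.3% of all genes and in the other for 14.8%, although SI3 lay below COL4. Meg3, another imprinted RNA, was called as well but had 0 counts in SI1 and SI4, so it is carried by colon, with 8.56 and 18.9 CPM in COL3 and COL4 against 61.6 and 79.99 in COL1 and COL2.

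Genes outside the protein coding class took a larger part of the counts in the high libraries of each tissue. Protein coding genes held 97.8% to 99.0% of nuclear counts in low libraries and 90.8% to 95.8% in high ones, lowest in COL2. The mean of the differences within SI and within COL was -4.41 points, with p = 0.0556 in the two-sided exact permutation test, the smallest that 36 assignments within tissue allow, so no such value can reach 0.05. Part of that difference restates the share that chose the libraries, since the mitochondrial copies held 0.0627% to 0.104% of nuclear counts in low and 0.389% to 1.01% in high libraries. With the copies left out of the total the protein coding share was 97.8% to 99.1% in low and 91.8% to 96.2% in high libraries, a difference of -3.98 points (exact permutation p = 0.0556). LincRNA, antisense and processed transcript genes held 0.301% and 0.443% in SI1 and SI4 against 1.01% and 0.740% in SI2 and SI3, and 0.781% and 0.713% in COL3 and COL4 against 1.85% and 3.99% in COL1 and COL2 (exact permutation p = 0.0556). TEC and sense intronic genes, classes that include short loci within introns, held 0.0262% to 0.0754% in low and 0.0684% to 0.460% in high libraries (exact permutation p = 0.0556). High and low libraries of the same tissue did not overlap in any of these shares. Of the genes called higher, 278 of 423 were protein coding, and of those called lower 681 of 691, among 14108 of 17470 tested. Many non-coding genes are so low that they pass the filter through the high libraries, so these counts describe and do not support a difference between classes.

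Among protein coding genes, the medians were ordered by the length of the gene. In the quintile with the longest span on the genome, 72858 bases or more, the median log2 difference was 0.33, with 121 genes higher and 45 lower of 2822. In the quintile with the shortest span, up to 8438 bases, it was -0.25, with 14 higher and 179 lower of 2822. The medians climbed from quintile to quintile, and the shift from the shortest to the longest was seen within SI (-0.19 and 0.31) and within COL (-0.41 and 0.32). By exonic length the medians were -0.34 in the shortest and 0.36 in the longest quintile, and by the number of exons of the longest transcript -0.15 in the lowest and 0.31 in the highest. By GC content they fell from 0.09 through -0.00473 and -0.0729 to -0.16 over the first 4 quintiles and were -0.0148 in the last, with 82, 99, 135, 204 and 161 genes called lower.

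The medians were ordered more steeply by level. From the lowest to the highest quintile of mean log2 CPM they were 0.86, 0.30, -0.00819, -0.21 and -0.52, and 431 of the 2822 genes of the highest quintile were called lower (15.3%) and 56 higher (1.98%). The filter can admit genes of low level through the high libraries alone, which bears on the lowest quintiles. Within quintiles of level the longest genes still had higher medians than the shortest, at -0.17 against -0.65 in the highest quintile of level, 0.0541 against -0.46 in the next and 0.22 against -0.28 in the middle one. Transcript length, span, number of exons and level are linked among these genes, and their parts were not separated further.

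The same contrast can be read in each library. The mean log2 CPM of the longest quintile minus that of the shortest was -0.70 in SI1, -0.57 in SI4, -0.39 in COL3 and -0.59 in COL4, and 0.20 in SI2, -0.43 in SI3, -0.29 in COL1 and 0.38 in COL2. The high libraries lay above the low ones within each tissue (mean difference 0.53, exact permutation p = 0.0556), with SI2 and COL2, both of replicate 2, far above the other 6. SI3 and COL1 were closer to the low libraries than to SI2 and COL2.

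**Figure D3:**
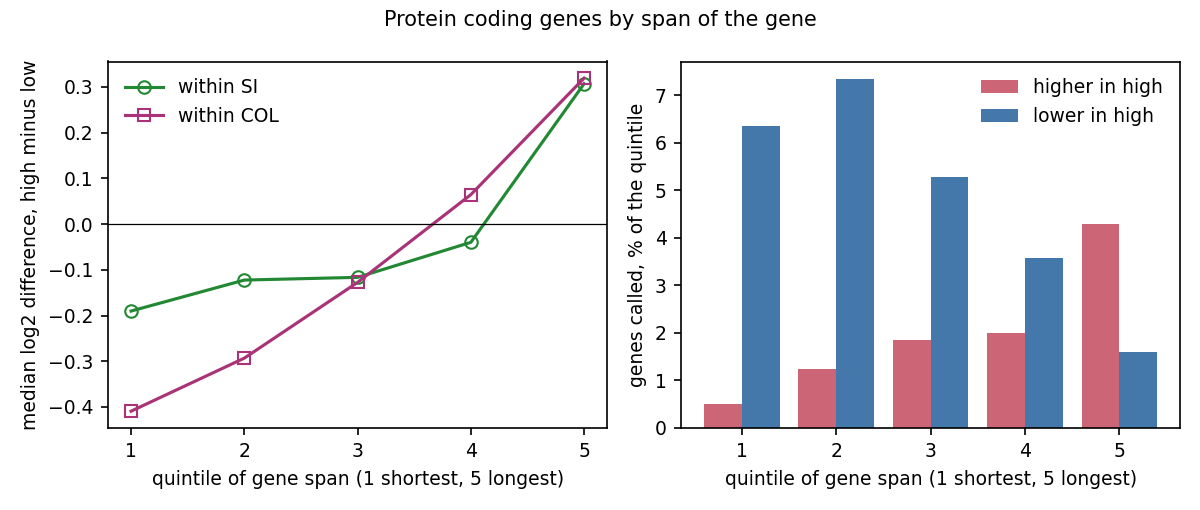
Protein coding genes in quintiles of their span on the genome, from the shortest (1) to the longest (5). Left, median log2 difference of high minus low within SI (circles) and COL (squares), and right, percent of each quintile called higher (red) or lower (blue) in the high libraries, 0.50% and 6.34% in the shortest and 4.29% and 1.59% in the longest quintile.

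The genes with the smallest p among those lower in the high libraries included enzymes, transporters and junction proteins of the gut epithelium. Hsd17b2, a steroid dehydrogenase that inactivates oestradiol and testosterone, was 264 CPM in SI1, 179 in SI4, 449 in COL3 and 276 in COL4, and 59.3 in SI2, 51.6 in SI3, 80.4 in COL1 and 60.3 in COL2. Each high library lay below each low one, with a log2 difference of -2.18 ± 0.26 (edgeR adjusted p = 0.0287). Naaladl1, a peptidase of the brush border, was 4852 and 5581 CPM in SI1 and SI4 against 1618 and 771 in SI2 and SI3, and 295 and 143 in COL3 and COL4 against 44.4 and 38.1 in COL1 and COL2. Its log2 difference was -2.27 ± 0.34, similar in both tissues although its level differed widely between them.

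Osgin1, a gene induced by oxidative stress, had a log2 difference of -1.58, Slc25a22, the mitochondrial glutamate carrier, one of -1.56, and Insig2, which retains the sterol sensor in the endoplasmic reticulum, one of -1.34. Cnnm4, a magnesium transporter of the basolateral membrane, was 893 to 1066 CPM in the 4 low libraries and 286 to 399 CPM in the 4 high ones (log2 difference -1.51 ± 0.23). Fuca2, a fucosidase, fell by 1.46 on the log2 scale, Card19 by 1.41 and Tap2, a subunit of the peptide transporter of antigen presentation, by 1.48. Each gene of this paragraph had an edgeR adjusted p of 0.0287.

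Of 17 genes of the brush border and the cell junctions, 7 were lower (41.2%) and 0 higher, against 3.96% and 2.42% of all genes, with a median log2 difference of -0.69. The list is of high level: 17 of 17 lie in the highest quintile of level, in which 15.3% were called lower and the median was -0.52. Ocln, the tight junction protein occludin, was 378 and 384 CPM in SI1 and SI4 against 141 and 175 in SI2 and SI3, and 167 and 137 in COL3 and COL4 against 58.3 and 52.4 in COL1 and COL2 (log2 difference -1.37 ± 0.20). Cldn3, a claudin, fell by 1.45, Cdhr5, a cadherin that links microvilli, by 1.41 and Krt8, a keratin of simple epithelia, by 1.44. Krt8 was 5823 to 7067 CPM in low and 1639 to 3109 CPM in high libraries. Not every member followed: Tjp1, which encodes the scaffold ZO-1, had a log2 difference of 0.69 and Epcam one of -0.16, and neither passed edgeR (adjusted p = 0.237 and 0.746).

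**Figure D4:**
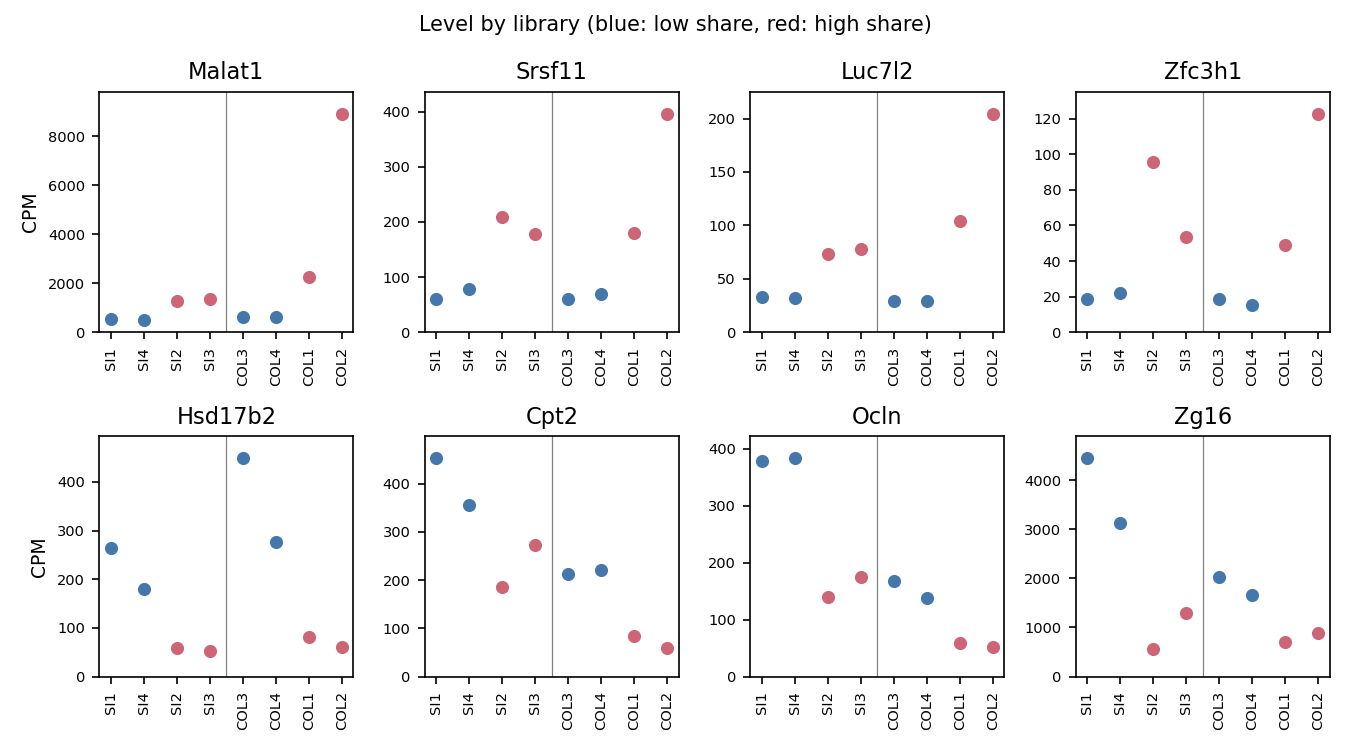
CPM of 8 genes in each library, with 1 point per library (blue for low, red for high share), SI left and COL right of the grey line, each axis from 0. Malat1, Srsf11, Luc7l2 and Zfc3h1 are higher and Hsd17b2, Cpt2, Ocln and Zg16 lower in the high libraries of both tissues.

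In the lists of nuclear-encoded energy metabolism, no gene was called higher in the libraries rich in mitochondrial RNA by edgeR with TMM. This depends on the filter, the scaling and the tool. With at least 10 counts in every library edgeR called 1 mitochondrial ribosomal protein higher and 2 lower. With no filter it called 18 subunits of the respiratory chain lower and 0 higher. With library size alone 2 subunits of the respiratory chain and 3 mitochondrial ribosomal proteins were called higher and 0 lower. DESeq2 called 1 mitochondrial ribosomal protein higher and 16 lower. Of 18 genes of fatty acid oxidation, 7 were lower (38.9%) and 0 higher, against 3.96% and 2.42% of all genes. The median log2 difference was -1.02, against 0.09 for all genes, and 0 of 18 had a value above 0. In the highest quintile of level, which holds 16 of the 18, 15.3% were called lower. Cpt2, which reforms acyl-CoA on the matrix side of the inner membrane, was 453 and 357 CPM in SI1 and SI4 against 186 and 274 in SI2 and SI3, and 212 and 221 in COL3 and COL4 against 84.5 and 58.9 in COL1 and COL2. Acadvl, the dehydrogenase for very long chains, was 243 to 343 CPM in low and 66.7 to 205 CPM in high libraries. Their log2 differences were -1.20 ± 0.26 and -1.33 ± 0.26 (edgeR adjusted p = 0.032 and 0.029).

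Hadhb, the beta subunit of the trifunctional protein, fell by 1.16 on the log2 scale, and Pdk4, a kinase that switches off pyruvate dehydrogenase, by 1.92 (edgeR adjusted p = 0.033 and 0.029).

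Of 81 nuclear-encoded subunits of the respiratory chain and ATP synthase, 79 were tested and none was called in either direction in edgeR (34 at an unadjusted p below 0.05, and 25 called lower by DESeq2). Of all genes, 14.7% were lower and 13.4% higher at an unadjusted p below 0.05, and DESeq2 called 19.8% (11.7% lower and 8.08% higher). The subunits' median log2 difference was -0.64, against 0.09 for all genes and -0.52 in the highest quintile of level, which holds 73 of the 79, and 5 of 79 were above 0. The median was -0.27 within SI and -0.99 within COL. Atp5b, the catalytic subunit of ATP synthase, was 2498 and 2554 CPM in SI1 and SI4 against 1770 and 2131 in SI2 and SI3, and 1760 and 1199 in COL3 and COL4 against 957 and 597 in COL1 and COL2 (log2 difference -0.65 ± 0.28, edgeR adjusted p = 0.158). Atp5a1, the alpha subunit, differed little in SI, at 2336 and 2494 against 2101 and 2201 CPM, and more in COL, at 1843 and 2058 against 852 and 686 CPM.

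Of 76 mitochondrial ribosomal proteins tested, 2 were lower (2.63%) and 0 higher, with a median of -0.42, so the share called was no larger than the 3.96% of all genes. Mrpl15 and Mrpl43, both of the large subunit, fell by 0.79 and 1.01 on the log2 scale. In the TCA cycle 1 of 18 was lower (5.56%) and 0 higher (median -0.70), namely Cs, citrate synthase, at 698 to 2369 CPM in low and 282 to 1454 CPM in high libraries (log2 difference -0.97 ± 0.23, edgeR adjusted p = 0.039). In glycolysis 3 of 17 were lower (17.6%) and 0 higher (median -0.81): Slc2a1, the glucose transporter, and Pfkl and Pfkp, subunits of phosphofructokinase. The highest quintile of level holds 12 of the 17 genes of glycolysis and 15 of the 18 of the TCA cycle. In that quintile 15.3% of genes were called lower and the median was -0.52, so the share called in glycolysis lay near it.

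Genes that copy, transcribe and process mitochondrial DNA and RNA had few calls. Of 30 tested, 1 was lower (3.33%, against 3.96% of all genes) and 0 higher, and the median was -0.11. The member called was Ptcd1, a protein that binds mitochondrial RNA (log2 difference -1.70). Among 24 genes of mitochondrial chaperones, import and quality control 1 was lower (4.17%), the mitophagy receptor Bnip3l, at 109 to 162 CPM in low and 65.9 to 84.4 CPM in high libraries. Of 28 replication-dependent histones tested of 65 listed, 1 was lower (3.57%), Hist1h2bc, a variant of H2B (log2 difference -1.14). The histones as a list went the other way, with a median of 0.41 and 19 of the 28 above 0. Of the 28, 13 lie in the lowest quintile of level, in which the median was 0.86. The cytosolic ribosomal proteins, 82 of 86 tested and 0 called in edgeR (5 at an unadjusted p below 0.05 and 2 by DESeq2), had a median of 0.58 within SI and -0.33 within COL. In SI that median rests on SI1, in which Rplp0 and Rpsa, both of the cytosolic ribosome, were 400 and 249 CPM against 920 to 1085 and 675 to 797 CPM in SI2, SI3 and SI4.

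**Figure D5:**
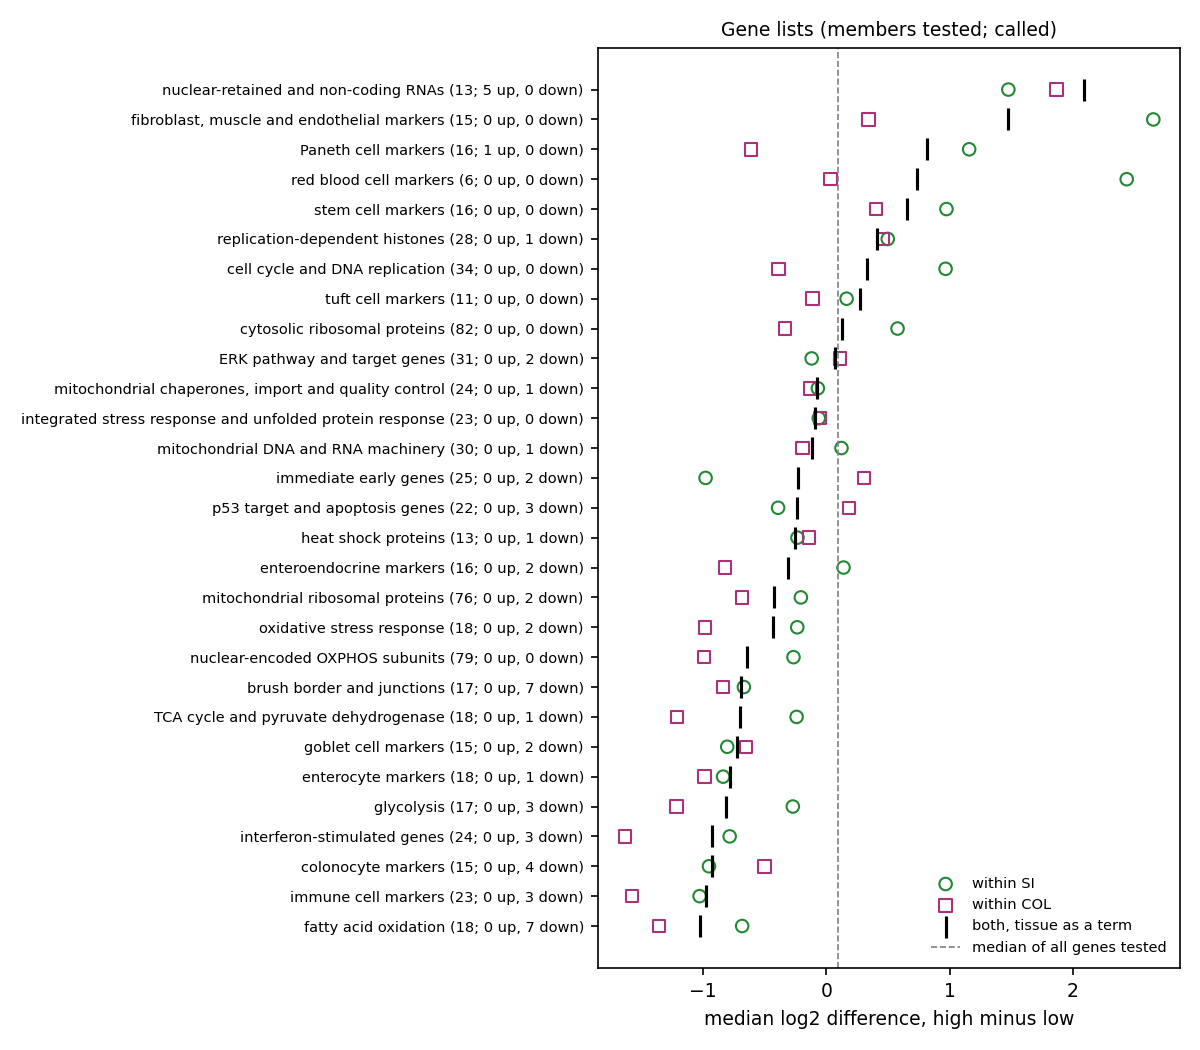
Median log2 difference of high minus low over the tested members of 29 gene lists, within SI (circles), within COL (squares) and over both (bars), with the number of members tested and called after each name. The dashed line is the median of all genes tested, 0.09, and the lists run from fatty acid oxidation at -1.02 to nuclear-retained RNAs at 2.09.

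With edgeR and TMM, no gene of the stress lists was called higher in the high libraries. Of all genes, 2.42% were called higher and 3.96% lower. Of 25 immediate early genes, 2 were lower (8%) and 0 higher, the mRNA decay factor Zfp36 and the transcription factor Klf6. The list's median was -0.98 within SI and 0.31 within COL. Of 13 heat shock genes 1 was lower (7.69%), Dnajb1, and of 23 genes of the integrated stress and unfolded protein responses none was called in edgeR (1 at an unadjusted p below 0.05 and 1 by DESeq2). Hspa5, the chaperone BiP, was 459 to 1056 CPM in low and 293 to 859 CPM in high libraries, and the groups overlapped.

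Among 22 p53 target and apoptosis genes, 3 were lower (13.6%) and 0 higher, against 3.96% and 2.42% of all genes. The list's median was -0.39 within SI and 0.18 within COL. Cdkn1a, the cell cycle inhibitor p21, was 432 and 546 CPM in SI1 and SI4 against 171 and 231 in SI2 and SI3, and 324 and 244 in COL3 and COL4 against 116 and 142 in COL1 and COL2 (log2 difference -1.21 ± 0.22, edgeR adjusted p = 0.029). The death receptor Fas fell by 1.60 and the survival factor Bcl2l1 by 1.01. In the oxidative stress list 2 of 18 were lower (11.1%), Cat, the catalase of peroxisomes, with a log2 difference of -1.22, and Hmox1, the haem oxygenase, which was under 2 CPM in SI and at 21.5 and 45.9 against 3.34 and 4.71 CPM in colon. The highest quintile of level, in which 15.3% of genes were called lower, holds 13 of the 18.

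Some markers of differentiated epithelial cells were lower in the high libraries, and in bulk RNA fewer cells of a type and less RNA per cell cannot be told apart. In the colonocyte list 4 of 15 were lower (26.7%) and 0 higher, against 3.96% and 2.42% of all genes and 15.3% lower in the highest quintile of level, which holds 11 of the 15. Guca2a, guanylin, was 4226 and 3693 CPM in COL3 and COL4 against 1842 and 1053 in COL1 and COL2, and 518 and 560 in SI1 and SI4 against 174 and 95.9 in SI2 and SI3. Cyp2c55, a cytochrome P450 of the colon, fell by 2.15 on the log2 scale, Emp1, a membrane protein, by 1.46 and Selenbp1, which binds selenium, by 1.46. The list summed to 34709 and 59530 CPM in the low and 12311 and 14343 CPM in the high colon libraries.

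In the enterocyte list 1 of 18 was lower (5.56%, near the 3.96% of all genes) and 0 higher. The list's median was nevertheless -0.78, with 17 of 18 below 0. The highest quintile of level, in which 15.3% were called lower and the median was -0.52, holds 16 of the 18. The gene called was Fabp2, the intestinal fatty acid binding protein, at 27380 and 30942 CPM in SI1 and SI4 against 8718 and 14673 in SI2 and SI3. Of 15 goblet cell markers 2 were lower (13.3%), the lectin Zg16 and the mucus protein Clca1. The highest quintile of level, in which 15.3% of genes were called lower, holds 10 of the 15. Zg16 was 1665 to 4447 CPM in low and 567 to 1290 CPM in high libraries (log2 difference -1.63 ± 0.34). Of 16 enteroendocrine markers 2 were lower (12.5%, against 3.96% of all genes), the hormones Sct and Pyy. The list's median was 0.14 within SI and -0.82 within COL, so the list as a whole did not follow them in SI. Pyy was only 0.618 to 8.38 CPM in SI.

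Markers of the crypt base had no call in the lower direction. Of 16 stem cell markers none was called in edgeR (2 at an unadjusted p below 0.05 and 0 by DESeq2), with a median of 0.65 and 14 above 0. They summed to 135 CPM in SI1, 538 in SI4, 522 in SI2 and 754 in SI3, and to 775 to 1113 CPM in colon. SI1 therefore stood apart from the other 3 SI libraries, and SI4, of low share, lay between SI2 and SI3. Of 16 Paneth cell markers 1 was higher (6.25%, against 2.42% of all genes), the angiogenin Ang4, at 8.82 to 29.2 CPM in low and 34.9 to 94.5 CPM in high libraries. Its log2 difference was 1.22 within SI and 2.24 within COL, while the list's median was 1.16 within SI and -0.61 within COL. Lyz1, a lysozyme of Paneth cells, was 78.0 to 777 CPM in SI but 0.725 to 3.995 CPM in colon, with a log2 difference of 0.0383. Which cells made Ang4 in colon was not tested. Of 34 cell cycle genes 0 were called in edgeR (3 at an unadjusted p below 0.05 and 3 by DESeq2), with medians of 0.97 within SI and -0.39 within COL. The list median over both tissues, taken relative to the median of all genes, was 0.24 and turned to -0.13 without SI1. Mki67, the proliferation marker Ki-67, was 17.9 to 131 CPM in low and 146 to 323 CPM in high libraries without overlap. The same order held for 6.26% of all genes. Mki67 did not pass (log2 difference 1.43 ± 0.42, edgeR adjusted p = 0.066). Within COL its log2 difference was 1.16, against the list's median of -0.39. Top2a, of the same list, overlapped in colon, at 110 and 197 CPM in COL3 and COL4 against 263 and 128 in COL1 and COL2.

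Markers of blood and stromal cells differed by list. Of 23 immune cell markers 3 were lower (13.0%) and 0 higher, against 3.96% and 2.42% of all genes, with a median of -0.98. Cd74 and H2-Ab1, of MHC class II antigen presentation, are also made by enterocytes, and Nkg7 by cytotoxic lymphocytes. The list summed to 22514 and 14926 CPM in SI1 and SI4 against 7168 and 7270 in SI2 and SI3, and to 187 and 508 CPM in COL3 and COL4 against 88.7 and 104 in COL1 and COL2. Cd74 alone gave 16460 and 10709 CPM in SI1 and SI4 and 5103 and 5105 CPM in SI2 and SI3. In colon Cd74 gave 96.7 and 176 CPM in COL3 and COL4 against 9.83 and 38.4 in COL1 and COL2. H2-Ab1 gave 34.8 and 61.5 CPM in COL3 and COL4 against 5.15 and 13.4 in COL1 and COL2. The sums therefore do not stand for immune cells alone. With Cd74 and H2-Ab1 taken out, the low libraries stayed above the high ones in SI. In colon the sums were then no longer apart, and COL3 lay below COL1. Ptprc, which encodes CD45, was 23.6 and 29.96 CPM in the low and 13.7 and 14.9 CPM in the high SI libraries, but 7.26 to 15.5 CPM in colon with overlap. Of 24 interferon-stimulated genes 3 were lower (12.5%), Irf7, Psmb8 and Oas1a, and the median was -0.93. The part of immune cells in any of these results was not tested.

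Fibroblast, muscle and endothelial markers were near 0 throughout. Of 20 listed, 15 were tested and 0 called in edgeR (1 at an unadjusted p below 0.05 and 2 by DESeq2), and they summed to 9.32 to 45.2 CPM in low and 13.3 to 56.3 CPM in high libraries. Their median log2 difference was 1.47, at 2.65 within SI and 0.34 within COL. Of the 15, 10 lie in the lowest quintile of level, in which the median was 0.86. Red blood cell markers summed to 0.177 to 52.1 CPM in low and 1.54 to 32.6 CPM in high libraries, with 0 of 6 called in edgeR (1 at an unadjusted p below 0.05 and 0 by DESeq2). Of 11 tuft cell markers 0 were called in edgeR (1 at an unadjusted p below 0.05 and 1 by DESeq2).

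Genes that are discussed in the study of these samples or used there as references had varied values. Gapdh, an enzyme of glycolysis often used for scaling, was 3868 and 2402 CPM in SI1 and SI4 against 1324 and 2391 in SI2 and SI3, and 1589 and 1295 in COL3 and COL4 against 800.3 and 434 in COL1 and COL2 (log2 difference -0.99 ± 0.32, edgeR adjusted p = 0.086). Actb had a log2 difference of -0.32 and Cdh1, E-cadherin, one of -0.58, and neither passed (edgeR adjusted p = 0.467 and 0.122). Cdh1 was nevertheless below every low library in each high one, at 623 to 745 against 849 to 1082 CPM.

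In the ERK pathway, which the study compares between the tissues, 2 of 31 genes were lower (6.45%, against 3.96% of all genes) and 0 higher (against 2.42%), and the list's median of 0.0714 lay near the 0.09 of all genes. Map2k1, the kinase MEK1, was 57.8 to 76.7 CPM in low and 34.0 to 46.4 CPM in high libraries (log2 difference -0.88 ± 0.20), and Nras, a Ras GTPase, fell by 0.73 (edgeR adjusted p = 0.034 and 0.046). Dusp6, a phosphatase that is a target of the pathway, was 178 and 176 CPM in SI1 and SI4 against 70.5 and 155 in SI2 and SI3, and 41.3 and 44.4 in COL3 and COL4 against 24.5 and 8.17 in COL1 and COL2. It did not pass (log2 difference -1.01 ± 0.37, edgeR adjusted p = 0.109). SI2 and COL2, again of replicate 2, had the lowest Dusp6 of their tissues. Ksr1, a scaffold of the pathway, was 8.59 to 44.5 CPM in low and 5.92 to 45.0 CPM in high libraries, which overlapped.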

How the data were processed

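Gene expression was measured by RNA-seq in 8 libraries, 4 of SI and 4 of COL, from 4 donor mice. The deposited values are raw read counts per Ensembl gene, which the authors made by trimming with Trimmomatic 0.36 and by alignment and counting with STAR 2.5.2b (submitters' notes name the builds mm9 and mm10, the methods mm10). The annotation release and strand setting are not given in the sources used here, and without strand, reads of overlapping or antisense genes cannot be told apart. Of 45706 gene identifiers, 45143 matched GENCODE vM21 (GRCm38), which gave symbols and classes, and the other 563 held at most 0.0389% of a library's counts.

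The mt- genes (37 annotated, 22 with counts) were summed to class the libraries and then left out of the table and the totals. Nuclear genes were filtered by filterByExpr (minimum count 10) on tissue and share class, scaled by TMM and tested by edgeR 4.0.16 (glmQLFit, glmQLFTest; R 4.3.3) with tissue as a term, 5 residual degrees of freedom and Benjamini-Hochberg adjustment over 17470 genes. Contrasts within a tissue and their difference came from a fit with a mean for each tissue and class. Log2 CPM used a prior count of 2. Values of a library were compared by exact permutation within tissue over 36 assignments. The code was tested on simulated data. DESeq2 1.42.0 and voom of limma 3.58.1 were alternatives. P-values reflect the spread between these libraries.

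The members, lists and tests were chosen with earlier results of these data known. Named genes were the 10 of smallest p in each direction among called genes with a mean log2 CPM of 5 or more and the same sign in both tissues, up to 4 called members of each list or otherwise its 2 members of highest CPM, the 3 of smallest interaction p, sex-linked genes, and genes the study discusses. Neat1, Epcam, Tjp1, Lgr5, Ptprc and Gm28661 were added after their values were seen. Some genes that the rule takes are not reported here.

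The labels give each replicate number 1 donor mouse in both tissues, so the numbers pair the libraries; the correlation of paired deviations was 0.39, 0.33, -0.07 and -0.15. Since the mouse gives 1 library of each tissue, the block separates share from mouse only in the mice of replicates 1 and 3. All pairs of libraries of a tissue differed beyond sampling noise (chi-square per gene 76.1 or more), so none was a repeat.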

Additional observations from a re-analysis of the deposited data

Results flagged for a closer look

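In groups of 4 libraries of 1 tissue, a library was singled out where its gap to the nearest other, divided by the range, was above Dixon's critical value. This was so in 9 of 276 groups tried, and chance alone gives about 1 in 20. Of these, 3 belong to SI1, of low share: its mean log2 CPM over the cell cycle list was 1.98 against 4.18 to 4.51 in the other SI libraries, and its log2 CPM was 8.64 for Rplp0 (9.85 to 10.1 in the others) and 7.96 for Rpsa (9.40 to 9.64).

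SI2, of high share, had 25599 nuclear genes with a count against 17966 to 19236, a mean log2 CPM of 6.42 over the oxidative stress list against 7.08 to 7.21, and a log2 CPM of 6.14 for Dusp6 against 7.27 to 7.48. COL2, of the highest share, had a mean log2 CPM of 5.50 over mitochondrial chaperones, import and quality control against 5.84 to 5.86, and of 8.50 over goblet cell markers against 9.20 to 9.24. SI4 had a log2 CPM of -3.40 for Hbb-bs, a haemoglobin chain with 0 counts there, against -1.55 to -1.39.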

How the results depend on the processing

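The count of 1114 genes called in the comparison over both tissues became 1430 with DESeq2's size factors, 916 with mt- genes kept in the totals, 1480 with at least 10 counts in every library and 1089 without the mitochondrial copies, each within 1.5 times. It was 1813 with library size alone, 2353 with no filter, 3456 by DESeq2, 1997 by limma-voom, 2900 with the log2 ratio of mt- to nuclear counts as a covariate, and 0 with sex as a term. With the replicate block it was 0, and leaving out 1 library gave 0 to 1235. The share of calls in the higher direction was 38.0%, 32.7% with DESeq2's size factors, 94.5% with library size alone and 53.4% with at least 10 counts in every library. Within SI 0 calls became 850 with no filter, 915 by DESeq2 and 0 to 1 without 1 library (1 without SI2). Within COL 0 became 1375 with no filter, 462 with at least 10 counts in every library, 2305 by DESeq2, 143 by limma-voom and 0 to 2334 without 1 library (2334 without COL1). The interaction gave 0, 191 with no filter, 34 by DESeq2 and 0 without any 1 library. The block left the 0 of these 3 tests at 0. The causes of these shifts were not tested. Sex cannot be fitted within SI.

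Relative to the median of all genes, 29 of 29 list medians kept their side under each scaling, DESeq2 and limma-voom. With the replicate block 4 changed side: stress response, mitochondrial DNA and RNA machinery, tuft and stromal markers. With at least 10 counts in every library 4 of 28 did: stress response, mitochondrial DNA and RNA machinery, mitochondrial chaperones and ERK. With no filter 2 did, cytosolic ribosomal proteins and tuft markers, with sex as a term tuft markers alone, and without 1 library 0 to 2 did. Log2 differences of genes that were not called changed sign as follows. With library size alone they were 0.36 for Rplp0, 0.36 for Hspa5, 0.17 for Vim, 0.16 for Actb and 0.18 for Cdx2. With the replicate block they were 0.54 for Rplp0, 0.11 for Hspa5, -0.00193 for Tagln, 0.98 for Kdm5d, 0.32 for Cdx2 and -0.25 for Ksr1. With sex as a term they were 0.0789 for Hspa5, -0.12 for Prom1, 0.68 for Kdm5d, -0.0239 for Lyz1 and -0.0154 for Ksr1. With at least 10 counts in every library they were 0.0576 for Rplp0 and 0.0346 for Hspa5, with limma-voom -0.0193 for Tagln, and for Lyz1 -0.0509 with no filter and -0.0432 by DESeq2. Without 1 library the ranges were -0.44 to 0.30 for Rplp0, -0.37 to 0.0897 for Hspa5, -0.19 to 0.35 for Calr, -0.25 to 0.51 for Prom1, -0.18 to 0.41 for Tagln, -0.31 to 1.78 for Hbb-bs, -0.0736 to 1.99 for Hba-a1, -0.59 to 0.78 for Lyz1, -0.76 to 0.00799 for Cdx2 and -0.22 to 0.66 for Ksr1.

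With 2 libraries in each class of a tissue, and COL2 at 7850880 nuclear counts, genes of small difference or low level could not be resolved. Share, donor mouse and, in SI, sex cannot be told apart for most of these values, and the isolation of each library is not given in the labels beyond its tissue.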
